A study of Homo sapiens with 8 samples.

Results

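The 48 genes described here copy DNA or supply the nucleotides for it: helicase loading and firing factors, replicative polymerases, the sliding clamp and its loader, flap and ligation enzymes, fork protection and chromatin assembly factors, and 4 enzymes of deoxynucleotide synthesis. They were chosen by name, from what their products are known to do, but with earlier results of these data known. All 48 were found among the 20531 genes that each library lists. Poly(A) RNA was sequenced from 8 cultures of SKBR-3 and BT474m1, established human breast cancer lines with HER2 amplification. Cultures of both lines, in RPMI with fetal bovine serum, were given the vehicle DMSO, lapatinib at 300 nM, JQ1 at 300 nM or the drugs together at these doses, and the labels put the treatment at 48 h. Lapatinib inhibits the EGFR and HER2 kinases, and JQ1 inhibits the BET bromodomain proteins, readers of acetylated chromatin. Each of the 8 groups held 1 library, so that there was no replicate spread to read a difference against and no p-value is given.

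DNA replication is licensed in G1, when the origin recognition complex, CDC6 and CDT1 load the MCM2-7 helicase onto DNA. In S phase the kinase CDC7 with DBF4, together with MCM10, CDC45 and the GINS complex, turns the loaded helicase into a moving fork, where the polymerases follow on a PCNA clamp. Most of these genes are transcribed in late G1 and S phase under E2F factors, so that their messages are abundant in dividing cells and scarce in arrested ones. HER2 signalling drives cell cycle entry in HER2-amplified breast cancer cells.

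The promoters of the genes that fell most with lapatinib, and of the gene that moved least, are shown because E2F factors are known to act there. Each window runs from 250 bases before to 50 after a RefSeq start of the gene, on GRCh38.p14, and is written in the direction of transcription. For ORC1L, RRM2 and CDC45 this start lies inside the RefSeq span of the gene. The bases before the outermost start of these genes are therefore not shown in full. The windows are those of MCM10 (chr10:13161308-13161607, plus strand), ORC1L (chr1:52404374-52404673, minus strand), RRM2 (chr2:10122489-10122788, plus strand), CDC45 (chr22:19479670-19479969, plus strand), TYMS (chr18:657403-657702, plus strand), RFC1 (chr4:39366313-39366612, minus strand) and MCM6 (chr2:135876394-135876693, minus strand). MCM6 was added after the words were counted, as a promoter with several of them. Capitals mark 4 E2F-type words (TTTCGCGC, TTTGGCGC, TTCCCGCC and TTTCCCGC) and the CCAAT word, each searched on both strands.
MCM10: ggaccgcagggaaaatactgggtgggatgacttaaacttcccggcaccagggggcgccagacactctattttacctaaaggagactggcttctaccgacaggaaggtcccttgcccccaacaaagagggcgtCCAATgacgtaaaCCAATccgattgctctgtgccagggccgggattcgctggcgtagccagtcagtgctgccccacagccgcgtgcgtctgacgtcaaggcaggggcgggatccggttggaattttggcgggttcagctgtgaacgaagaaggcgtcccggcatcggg
ORC1L: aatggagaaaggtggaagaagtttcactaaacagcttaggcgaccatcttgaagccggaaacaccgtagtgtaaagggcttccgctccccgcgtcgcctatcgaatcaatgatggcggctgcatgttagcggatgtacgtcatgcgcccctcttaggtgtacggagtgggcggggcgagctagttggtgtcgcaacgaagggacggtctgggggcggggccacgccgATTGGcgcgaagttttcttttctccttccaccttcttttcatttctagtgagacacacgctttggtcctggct
RRM2: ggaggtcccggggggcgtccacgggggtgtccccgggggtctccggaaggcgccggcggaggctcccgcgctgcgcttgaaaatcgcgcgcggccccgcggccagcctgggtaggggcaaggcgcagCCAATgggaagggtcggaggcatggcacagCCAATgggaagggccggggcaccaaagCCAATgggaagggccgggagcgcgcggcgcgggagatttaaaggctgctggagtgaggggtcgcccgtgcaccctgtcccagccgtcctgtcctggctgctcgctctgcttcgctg
CDC45: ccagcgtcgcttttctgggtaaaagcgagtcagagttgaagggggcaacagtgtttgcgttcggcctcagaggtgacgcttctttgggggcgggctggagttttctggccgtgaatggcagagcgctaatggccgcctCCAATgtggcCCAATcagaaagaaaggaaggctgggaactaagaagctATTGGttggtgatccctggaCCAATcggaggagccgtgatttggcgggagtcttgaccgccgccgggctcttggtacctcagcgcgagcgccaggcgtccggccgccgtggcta
TYMS: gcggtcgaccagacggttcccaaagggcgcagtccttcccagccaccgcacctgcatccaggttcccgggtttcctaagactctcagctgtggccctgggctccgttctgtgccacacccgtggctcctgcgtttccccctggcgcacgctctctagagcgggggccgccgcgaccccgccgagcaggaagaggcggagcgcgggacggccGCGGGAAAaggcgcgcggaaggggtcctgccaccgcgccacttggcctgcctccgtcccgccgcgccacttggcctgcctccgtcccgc
RFC1: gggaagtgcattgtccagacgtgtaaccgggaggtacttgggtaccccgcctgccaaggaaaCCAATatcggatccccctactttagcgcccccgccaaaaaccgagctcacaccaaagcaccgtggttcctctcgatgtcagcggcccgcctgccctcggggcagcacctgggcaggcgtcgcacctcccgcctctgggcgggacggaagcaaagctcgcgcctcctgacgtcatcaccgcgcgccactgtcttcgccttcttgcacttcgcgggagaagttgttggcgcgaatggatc
MCM6: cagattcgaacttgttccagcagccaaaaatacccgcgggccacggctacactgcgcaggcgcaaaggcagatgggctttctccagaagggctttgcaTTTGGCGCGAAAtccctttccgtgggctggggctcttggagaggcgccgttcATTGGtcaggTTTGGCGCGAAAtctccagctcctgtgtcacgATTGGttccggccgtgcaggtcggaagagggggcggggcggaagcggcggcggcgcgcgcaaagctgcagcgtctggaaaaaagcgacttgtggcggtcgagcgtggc

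The MCM6 window holds 4 E2F-type words that overlap as pairs, at bases -152 and -148 and at bases -90 and -86 from the start. The TYMS window holds 1, TTTCCCGC on the minus strand at base -39. The windows of MCM10, ORC1L, RRM2, CDC45 and RFC1 hold none of the 4 words, whereas all windows shown other than that of TYMS hold the CCAAT word, with 4 in CDC45 and 3 in RRM2. A missing match says only that these letters are not in the window. Promoters were matched for 41 of the 48 genes, and 26 of them (63.4%) hold an E2F-type word, beside 6.03% of all 27305 promoters of the table and 9.90% of the 11389 promoters of genes kept in the analysis. The CCAAT word is in 61.0% of the 41 promoters, in 39.7% of all and in 42.9% of those of genes kept. TTTGAA, the word of the CHR element found in genes of G2 and mitosis, is in 4.88% of the 41, in 18.2% of all and in 13.9% of those of genes kept.

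The values are read counts that the authors normalised, with the upper quartile of each library (over genes above 0) set to 1000. The value of 1 read lay between 0.471 and 0.766 units, and the depth between 21420077 and 34112232 reads on genes. A change is the difference of log2(value + 1), a gene was called changed at 2-fold, and the background is the share called of the 14429 genes that reached 10 in any of the libraries. All 48 genes passed this filter. The 95% intervals in parentheses are Clopper-Pearson intervals on the recovered reads and cover counting error only. The epithelial markers KRT8, KRT18, KRT19, EPCAM and ERBB2 stood at 3300 or more in each library, with a summed value from 166890 to 661599. ESR1 and PGR, the hormone receptors of BT474m1, stood at 189.9 or more there and at 16.8 or less in SKBR-3. PTPRC and CD3E, of the leukocyte markers, stood at 3.38 or less, and PECAM1 and PDGFRB at 1.43 or less. Of the other leukocyte, endothelial and fibroblast markers, CD68 reached 407, CDH5 126 and COL1A1 1253, and their part in the results was not tested.

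The comparison of lapatinib with DMSO asked how inhibition of HER2 changed the replication genes. In SKBR-3, lapatinib lowered 46 of the 48 genes at least 2-fold and raised 0, whereas 9.44% of all genes kept were lowered and 11.1% raised. In BT474m1 it lowered 43 and raised 0, beside backgrounds of 8.06% and 14%. Each of the 48 genes was below its DMSO value in both lines, under every scaling tried. The median change of the 48 was -2.17 in SKBR-3 and -2.37 in BT474m1, and the median of all genes kept was 0.05 and 0.07. The counting interval lay below 0 for 47 genes in SKBR-3, with RFC1 the exception, and for 48 in BT474m1, beside 30.4% and 33.5% of all genes kept. At this depth such intervals exclude small changes too, since with JQ1 they excluded 0 for 39 and 45 of the 48. The summed value of the 48 genes took 0.543% of the SKBR-3 library with DMSO and 0.124% with lapatinib, and 0.473% and 0.110% in BT474m1. In such bulk cultures, fewer cells in S phase and less message per cell cannot be told apart.

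**Figure D1:**
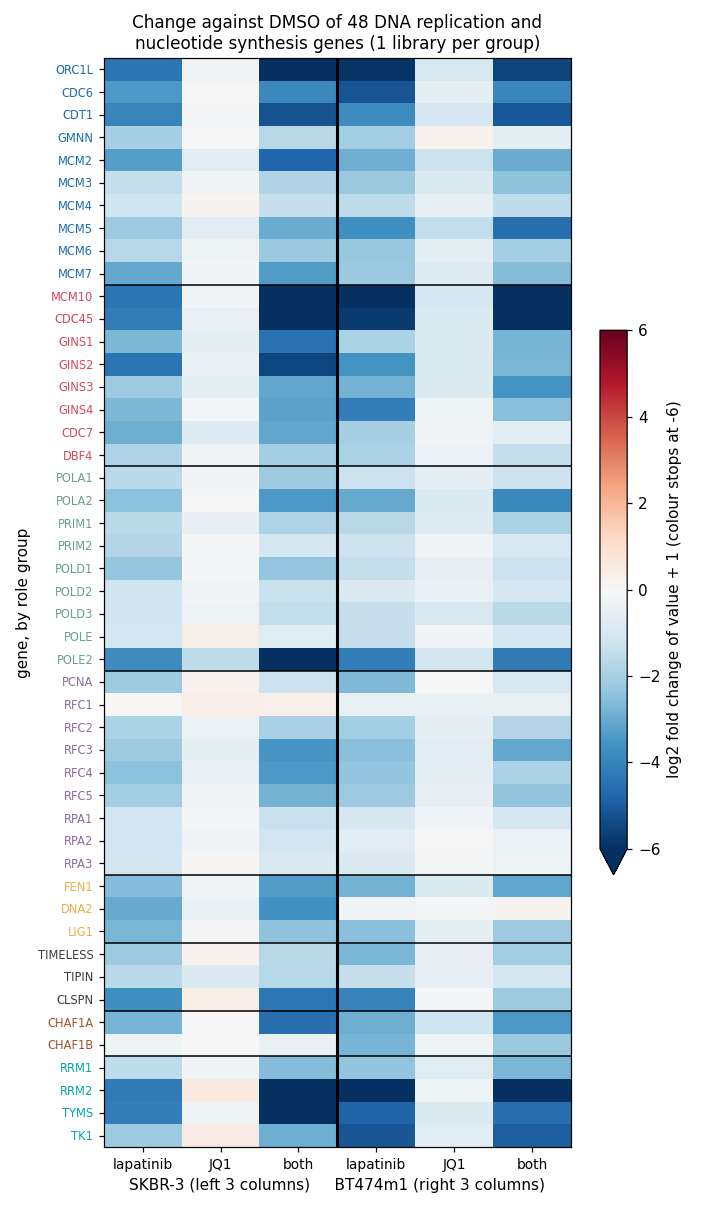
Log2 change against DMSO of the 48 genes (rows, grouped and coloured by role) with lapatinib, JQ1 and both drugs, in SKBR-3 (left) and BT474m1 (right), 1 library per group. The lapatinib columns are blue (lower) in all rows but for pale cells such as RFC1, DNA2 in BT474m1 and CHAF1B in SKBR-3, the JQ1 columns are pale, and the columns for both drugs resemble those for lapatinib.

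Of the 48, lapatinib lowered 42 in both lines, beside 4.15% of all genes kept, 4 in SKBR-3 alone (POLD2, RPA2, RPA3 and DNA2) and 1 in BT474m1 alone (CHAF1B), whereas RFC1 was lowered in neither. With nearly all of the 48 lowered in each line, the overlap has little room to vary and says nothing of sharing beyond the counts per line. POLD2, RPA2 and RPA3 were near the 2-fold limit, with SKBR-3 changes from -1.20 to -1.11 and BT474m1 changes from -0.85 to -0.68, and RPA1 was just past it at -1.01 in BT474m1. Pearson's r between the lines over these 48 changes was 0.760 and Spearman's rho 0.742, given as a description, since genes of 1 pathway and 1 library are not independent points. Ranked by the smaller fall of the lines, MCM10, ORC1L, RRM2, CDC45 and TYMS fell most.

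**Figure D2:**
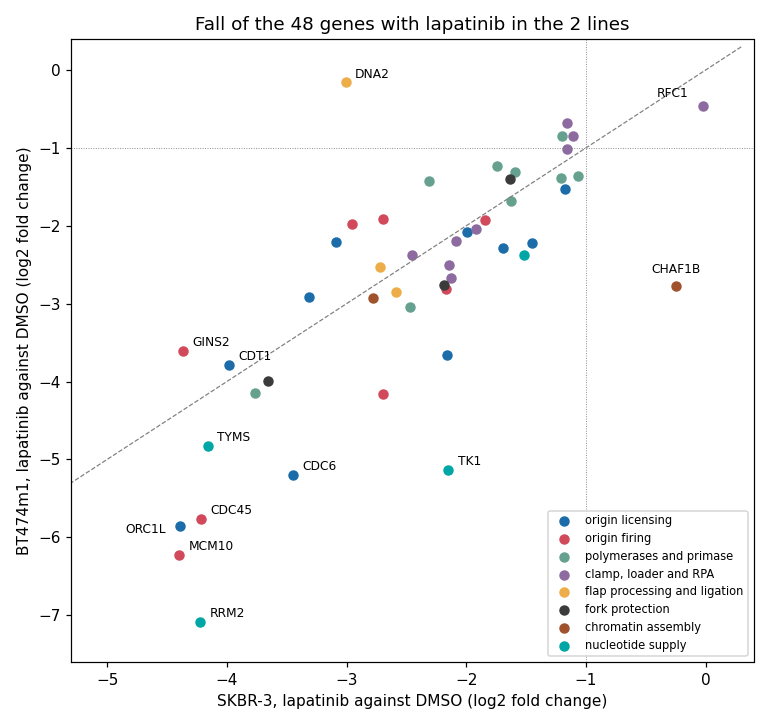
Log2 change with lapatinib against DMSO in SKBR-3 (horizontal axis) and BT474m1 (vertical axis), 1 point per gene, coloured by role, with the line of equal change dashed and the 2-fold limits dotted. DNA2 and CHAF1B stand far from the dashed line on opposite sides, and RRM2, MCM10, ORC1L and CDC45 lie lowest.

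Origin licensing was lowered throughout. Its 10 genes all fell at least 2-fold in both lines, with medians of -2.63 and -2.60, and their summed value fell from 27541 and 22899 with DMSO in SKBR-3 and BT474m1 to 5720.4 and 4541 with lapatinib. ORC1L, the older symbol of ORC1, the subunit of the origin recognition complex whose level follows the cell cycle (chromosome 1, 52372829 to 52409503 on GRCh38.p14), was at 662 (DMSO), 30.6 (lapatinib), 569.6 (JQ1) and 5.50 (both drugs) among the SKBR-3 libraries, and at 547, 8.43, 281 and 10.5 among those of BT474m1. The lapatinib and combination libraries were far below the others in both lines, and the fall with lapatinib was -4.39 (-4.93 to -3.98) and -5.86 (-6.90 to -5.27) on the log2 scale. CDC6, an ATPase that loads the helicase (chromosome 17, 40287879 to 40304657), was at 8315 (DMSO), 763 (lapatinib), 8527 (JQ1) and 572 (both drugs) among the SKBR-3 libraries, and at 1121, 29.5, 754 and 74.1 among those of BT474m1. Its DMSO value was several times higher in SKBR-3, and its fall with lapatinib was -3.44 (-3.54 to -3.35) there and -5.20 (-5.69 to -4.84) in BT474m1. The lowest CDC6 values were those of the BT474m1 libraries with lapatinib and with both drugs.

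CDT1, the partner of CDC6 in loading (chromosome 16, 88803789 to 88809258), was at 691 (DMSO), 42.9 (lapatinib), 663 (JQ1) and 17.2 (both drugs) among the SKBR-3 libraries, and at 909.9, 65.1, 459 and 26.2 among those of BT474m1. Lapatinib changed it by -3.98 and -3.79 in SKBR-3 and BT474m1, and it was lower again with both drugs in both lines. GMNN, chosen after its values were seen because it encodes geminin, the inhibitor of CDT1, was at 729 (DMSO), 182 (lapatinib), 752 (JQ1) and 232 (both drugs) among the SKBR-3 libraries, and at 663, 157, 757 and 437 among those of BT474m1. GMNN fell less than CDT1, by -1.99 and -2.08, so that the ratio of the GMNN value to the CDT1 value went from 1.05 to 4.25 in the SKBR-3 libraries and from 0.729 to 2.41 in those of BT474m1. The ratio with both drugs was higher still, 13.5 and 16.7. These values are not per length, so that only the change of a ratio between libraries can be read, not its size.

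The 6 MCM2-7 subunits form 1 ring in equal numbers, but their messages fell unequally. In SKBR-3 the falls ran from -1.18 for MCM4 to -3.31 for MCM2, and in BT474m1 from -1.53 for MCM4 to -3.66 for MCM5. MCM4 (chromosome 8, 47960941 to 47978160) was at 5481 (DMSO), 2425 (lapatinib), 6227 (JQ1) and 2127 (both drugs) among the SKBR-3 libraries, and at 3967, 1371, 2832 and 1387 among those of BT474m1. Its values with lapatinib and with both drugs lay near each other in each line, below those with DMSO and JQ1. MCM3, MCM6 and MCM7 changed by -1.45, -1.69 and -3.09 in SKBR-3 and by -2.22, -2.28 and -2.21 in BT474m1.

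Origin firing was lowered in all 8 genes in both lines, with medians of -2.82 and -3.21. MCM10, which activates the loaded helicase (chromosome 10, 13161558 to 13211110), was at 955 (DMSO), 44.4 (lapatinib), 839 (JQ1) and 2.75 (both drugs) among the SKBR-3 libraries, and at 840.2, 10.2, 408 and 9.91 among those of BT474m1. Its fall with lapatinib was -4.40 (-4.83 to -4.05) in SKBR-3 and -6.23 (-7.14 to -5.68) in BT474m1, and with both drugs in SKBR-3 it was down to 4 reads. CDC45, a subunit of the active helicase that was among the 5 genes ranked above, changed by -4.22 and -5.76 and was also at 4 reads in SKBR-3 with both drugs.

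GINS1, GINS2, GINS3 and GINS4 encode the complex that joins CDC45 to the MCM ring, and all 4 fell in both lines. GINS2 (chromosome 16, 85676198 to 85688954) was at 414 (DMSO), 19.1 (lapatinib), 316 (JQ1) and 8.25 (both drugs) among the SKBR-3 libraries, and at 702, 56.6, 400.0 and 103 among those of BT474m1. GINS4 (chromosome 8, 41529261 to 41545030) was at 213 (DMSO), 32.2 (lapatinib), 195 (JQ1) and 22.0 (both drugs) among the SKBR-3 libraries, and at 361, 19.3, 293 and 63.6 among those of BT474m1. Adding JQ1 to lapatinib moved both genes upward in BT474m1, where GINS4 changed by 1.67 (1.14 to 2.34) against lapatinib and GINS2 by 0.85 (0.49 to 1.23), whereas GINS2 moved downward in SKBR-3. With lapatinib GINS1 changed by -2.70 and -1.91 in SKBR-3 and BT474m1, and GINS3 by -2.17 and -2.82.

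CDC7, the kinase that fires origins (chromosome 1, 91500851 to 91525764), was at 480.3 (DMSO), 61.3 (lapatinib), 280.3 (JQ1) and 54.3 (both drugs) among the SKBR-3 libraries, and at 699, 177, 609 and 448 among those of BT474m1. DBF4, its activating partner (chromosome 7, 87876493 to 87909553), was at 1583 (DMSO), 441 (lapatinib), 1390.5 (JQ1) and 401 (both drugs) among the SKBR-3 libraries, and at 1307, 345, 1029 and 485 among those of BT474m1. The kinase fell by -2.95 and -1.98 with lapatinib and its partner by -1.84 and -1.92, and in BT474m1 CDC7 with both drugs stood closer to its DMSO than to its lapatinib value on the log2 scale. For 3 genes (MCM7, DBF4 and TYMS) some libraries held fractional read estimates, as RSEM gives for reads shared with another gene, and the other 45 were whole in all 8 libraries.

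The polymerase and primase genes had medians closer to 0 than those of licensing and firing. Lapatinib lowered 9 of 9 in SKBR-3 and 8 of 9 in BT474m1, with medians of -1.62 and -1.39. POLE2, an accessory subunit of the leading-strand polymerase (chromosome 14, 49643555 to 49688214), was at 253 (DMSO), 17.6 (lapatinib), 87.6 (JQ1) and 0 (both drugs) among the SKBR-3 libraries, and at 240.0, 12.7, 113 and 11.7 among those of BT474m1. Its fall with lapatinib, -3.77 (-4.52 to -3.23) and -4.14 (-4.95 to -3.62), was far larger than that of POLE, the catalytic subunit of the same enzyme, at -1.07 and -1.37. With both drugs POLE2 had 0 reads in SKBR-3, which the floor of 3 reads (2.06 units) places at least 122-fold lower than with DMSO, at least 42.5-fold lower than with JQ1 and at least 8.53-fold lower than with lapatinib.

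POLD2, an accessory subunit of polymerase delta (chromosome 7, 44114680 to 44124325), was at 4932 (DMSO), 2150.1 (lapatinib), 4387 (JQ1) and 1939 (both drugs) among the SKBR-3 libraries, and at 2854, 1581, 2131 and 1383 among those of BT474m1. Averaged over the lines it changed least of this group with lapatinib, by -1.20 (-1.26 to -1.13) and -0.85 (-0.92 to -0.79). PRIM2, the large primase subunit (chromosome 6, 57221540 to 57646850), was at 312 (DMSO), 92.6 (lapatinib), 287 (JQ1) and 148 (both drugs) among the SKBR-3 libraries, and at 372, 158, 317 and 193 among those of BT474m1. Both drugs left it above its lapatinib value in both lines. The falls of POLA1 and POLA2, subunits of the priming polymerase alpha, were -1.60 and -1.30 for POLA1 in SKBR-3 and BT474m1 and -2.47 and -3.04 for POLA2, and those of PRIM1, POLD1 and POLD3 lay between -2.31 and -1.21 over the lines.

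The clamp, its loader and the single-strand binding protein RPA differed within the group. Lapatinib lowered 8 of the 9 genes in SKBR-3 and 6 in BT474m1, with medians of -1.92 and -2.04. PCNA, the sliding clamp, given in each library after its values were seen (chromosome 20, 5114953 to 5126622), was at 4299.9 (DMSO), 983 (lapatinib), 5064 (JQ1) and 1783 (both drugs) among the SKBR-3 libraries, and at 5381, 848, 5215 and 2725 among those of BT474m1. It fell with lapatinib by -2.13 and -2.66 and, with both drugs, lay between its lapatinib and its DMSO value in both lines. RFC1, the largest subunit of the clamp loader (chromosome 4, 39287456 to 39366362), was at 569.8 (DMSO), 561 (lapatinib), 730.0 (JQ1) and 708 (both drugs) among the SKBR-3 libraries, and at 1656, 1201, 1251 and 1232 among those of BT474m1. It was the gene of the 48 that moved least on average, by -0.02 (-0.17 to 0.12) in SKBR-3, not detectable at this depth, and -0.46 (-0.54 to -0.38) in BT474m1. RFC4, another subunit of the loader (chromosome 3, 186789900 to 186806482), was at 817 (DMSO), 149 (lapatinib), 609.5 (JQ1) and 75.0 (both drugs) among the SKBR-3 libraries, and at 661, 127, 454 and 177 among those of BT474m1. The 4 small subunits RFC2, RFC3, RFC4 and RFC5 fell between -1.92 and -2.50, whereas RPA1, RPA2 and RPA3 changed between -1.16 and -0.68.

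FEN1, DNA2 and LIG1 trim and seal the lagging strand. FEN1, the flap endonuclease (chromosome 11, 61792911 to 61797238), was at 1767 (DMSO), 293 (lapatinib), 1584 (JQ1) and 173 (both drugs) among the SKBR-3 libraries, and at 1589, 219, 897 and 184 among those of BT474m1. It fell alike in the lines, by -2.59 (-2.75 to -2.44) and -2.86 (-3.02 to -2.70), as did LIG1, the replicative ligase, by -2.72 and -2.53. DNA2, a nuclease and helicase that also resects broken ends (chromosome 10, 68414064 to 68472521), was at 1119 (DMSO), 139 (lapatinib), 840.2 (JQ1) and 89.4 (both drugs) among the SKBR-3 libraries, and at 703, 629.5, 643 and 777 among those of BT474m1. Of the 48, this gene had its BT474m1 change furthest above its SKBR-3 change, with a value of -3.00 (-3.24 to -2.79) in SKBR-3 and of -0.16 (-0.28 to -0.05) in BT474m1, whose 4 values overlap no SKBR-3 value with lapatinib or both drugs.

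Fork protection genes fell in both lines, 3 of 3. CLSPN, which encodes claspin, the adaptor of the checkpoint kinase CHK1 at forks (chromosome 1, 35720213 to 35769978), was at 602 (DMSO), 46.7 (lapatinib), 792 (JQ1) and 28.9 (both drugs) among the SKBR-3 libraries, and at 974, 60.2, 919.8 and 219 among those of BT474m1. TIPIN, a partner of TIMELESS that holds the fork together (chromosome 15, 66336191 to 66386717), was at 195 (DMSO), 62.0 (lapatinib), 109.5 (JQ1) and 58.5 (both drugs) among the SKBR-3 libraries, and at 146, 54.8, 102 and 70.6 among those of BT474m1. CLSPN fell most of the 3, by -3.66 and -3.99, followed by TIMELESS at -2.19 and -2.75 and TIPIN at -1.63 and -1.39.

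CHAF1A and CHAF1B encode subunits of chromatin assembly factor 1, which places histones behind the fork. CHAF1A (chromosome 19, 4402640 to 4450830) was at 868 (DMSO), 126 (lapatinib), 851 (JQ1) and 37.1 (both drugs) among the SKBR-3 libraries, and at 726, 94.6, 321 and 65.9 among those of BT474m1. CHAF1B (chromosome 21, 36385392 to 36419015) was at 859 (DMSO), 724 (lapatinib), 883 (JQ1) and 627 (both drugs) among the SKBR-3 libraries, and at 425, 61.4, 351 and 91.0 among those of BT474m1. CHAF1A fell with lapatinib in both lines, by -2.78 and -2.93, whereas CHAF1B fell by -2.77 (-3.10 to -2.49) in BT474m1 and changed by -0.25 (-0.37 to -0.12) in SKBR-3. The ratio of the CHAF1A to the CHAF1B value therefore went in SKBR-3 from 1.01 to 0.173, and in BT474m1 from 1.71 to 1.54.

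The 4 genes of nucleotide supply had the lowest median with lapatinib of the 8 role groups, -3.15 in SKBR-3 and -4.98 in BT474m1. RRM2, the S-phase subunit of ribonucleotide reductase (chromosome 2, 10122568 to 10211010), was at 7440.2 (DMSO), 397 (lapatinib), 11020.0 (JQ1) and 19.9 (both drugs) among the SKBR-3 libraries, and at 4393, 31.3, 3548 and 29.7 among those of BT474m1. Its fall with lapatinib was -4.22 (-4.36 to -4.10) in SKBR-3 and -7.09 (-7.55 to -6.74) in BT474m1, the largest of the 48 genes there, or 18.7-fold and 136-fold on the scale of value + 1. RRM1, the catalytic subunit of the same enzyme (chromosome 11, 4094685 to 4138932), was at 3251 (DMSO), 1134 (lapatinib), 2884 (JQ1) and 533 (both drugs) among the SKBR-3 libraries, and at 2967, 572, 1776 and 441 among those of BT474m1. It fell less, by -1.52 (-1.60 to -1.43) and -2.37 (-2.48 to -2.28). The ratio of the RRM2 to the RRM1 value was 2.29 (DMSO), 0.350 (lapatinib), 3.82 (JQ1) and 0.037 (both drugs) among the SKBR-3 libraries, and 1.48, 0.055, 2.0 and 0.067 among those of BT474m1. With JQ1 alone this ratio was above that with DMSO in both lines, and with lapatinib, alone or combined, far below it.

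TYMS, thymidylate synthase (chromosome 18, 657653 to 673578), was at 2578 (DMSO), 143 (lapatinib), 2116 (JQ1) and 28.1 (both drugs) among the SKBR-3 libraries, and at 2735, 95.7, 1519 and 116 among those of BT474m1. It fell with lapatinib by -4.16 (-4.39 to -3.96) and -4.82 (-5.07 to -4.61). Its annotated exons share 967 bases (39.9%) with ENOSF1 on the opposite strand, and the labels name both a kit that keeps the strand and one that does not, so that the division of reads between the pair is uncertain. ENOSF1 was at 303 (DMSO), 198 (lapatinib), 181 (JQ1) and 73.1 (both drugs) among the SKBR-3 libraries, and at 398, 489.6, 383 and 506 among those of BT474m1, so that it did not follow TYMS in the latter line. Of the other 47 genes, 10 share exon bases with genes that the tables list, at most 8.19% of their own (PRIM1). With annotated genes outside the tables included, 23 of them share bases, most of all MCM2 (23.6%), GINS4 (23.4%), POLA2 (21.3%), TIPIN (21.1%) and PRIM1 (19.1%), so that the assignment of those reads is uncertain. The partners are an antisense noncoding RNA for MCM2, 2 of these for GINS4 and the pseudogene RPL9P25 on the same strand for TIPIN. TK1, the thymidine kinase of S phase (chromosome 17, 78174079 to 78187204), was at 4846 (DMSO), 1092 (lapatinib), 6878 (JQ1) and 642 (both drugs) among the SKBR-3 libraries, and at 1283, 35.5, 818 and 40.2 among those of BT474m1. Its fall with lapatinib in SKBR-3 was -2.15 (-2.23 to -2.07), and in BT474m1 it was larger, -5.14 (-5.57 to -4.80).

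**Figure D3:**
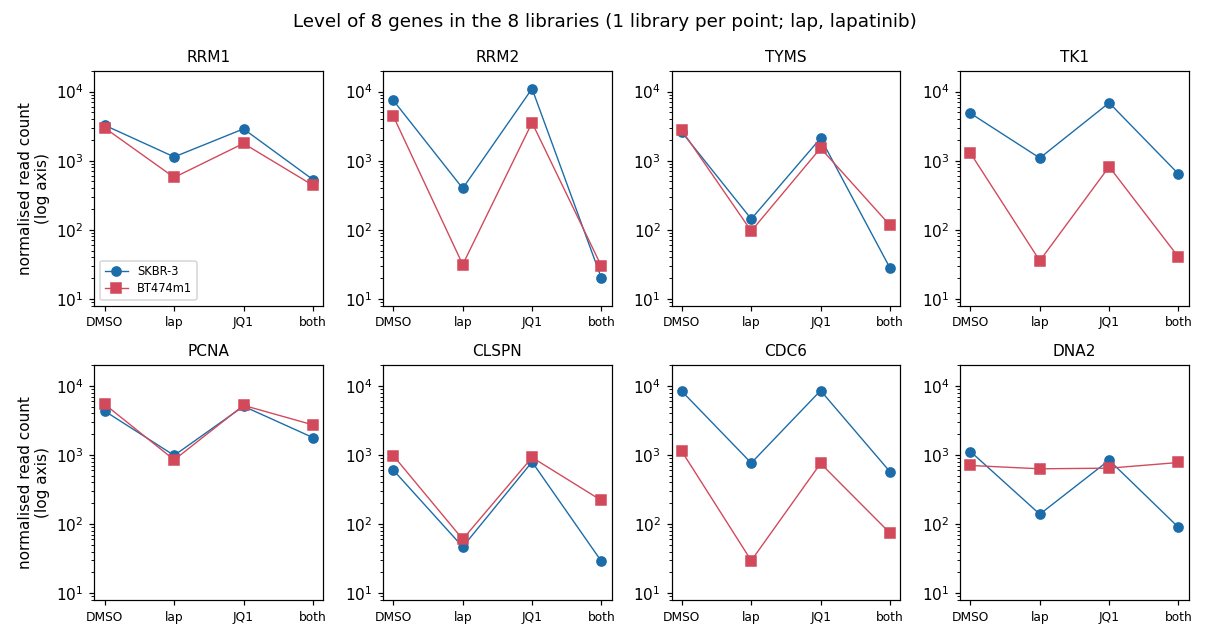
Normalised read count on a log axis of RRM1, RRM2, TYMS, TK1, PCNA, CLSPN, CDC6 and DNA2 with DMSO, lapatinib, JQ1 and both drugs, in SKBR-3 (circles) and BT474m1 (squares), 1 library per point, with lines only to guide the eye. RRM2 falls from 4393 to 31.3 with lapatinib in BT474m1, DNA2 stays between 629.5 and 777 in that line, and PCNA and CLSPN are higher with both drugs than with lapatinib there.

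With DMSO, few of the 48 genes differed 2-fold between the lines. The median difference of BT474m1 from SKBR-3 was 0.05, beside 0.21 for all genes kept, and it turned to -0.11 with scaling by the median of ratios. BT474m1 was at least 2-fold lower for 3 genes and higher for 1, beside backgrounds of 15.6% and 26.8%. The lower genes were CDC6 at -2.89 (-2.96 to -2.83), TK1 at -1.92 (-1.98 to -1.85) and CHAF1B at -1.01 (-1.14 to -0.89), and the higher gene was RFC1 at 1.54 (1.43 to 1.65). Of the 48, 25 were above and 23 below the SKBR-3 value.

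JQ1 alone was read in the same way. In SKBR-3 it lowered 1, POLE2, and raised 0, beside backgrounds of 11.8% lowered and 3.75% raised. In BT474m1 it lowered 5 (MCM2, MCM5, MCM10, POLE2 and CHAF1A) and raised 0, beside 11.8% and 4.81%. The BT474m1 count is near the share lowered of all genes and the SKBR-3 count is below it. The SKBR-3 median was -0.17 and that of BT474m1 -0.55, beside -0.08 and -0.06 for all genes kept, and the SKBR-3 median was -0.083 with the median of ratios and -0.32 with equal totals, where the median of all genes was 0.00 and -0.22. At a fold of 1.5, JQ1 lowered 6 genes in SKBR-3 and 21 in BT474m1, beside 21.5% and 21.1% of all genes, so that the BT474m1 count was above the background share at this limit.

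With JQ1, POLE2 changed in SKBR-3 by -1.52 (-1.82 to -1.24), and in BT474m1 by -1.09 (-1.32 to -0.87), the only gene of the 48 past 2-fold in both. In BT474m1, MCM5 and MCM2 of the helicase ring fell by -1.47 (-1.57 to -1.38) and -1.28 (-1.36 to -1.21), CHAF1A by -1.17 (-1.31 to -1.04) and MCM10 by -1.04 (-1.16 to -0.92). In SKBR-3 those 4 changed by -0.63, -0.66, -0.03 and -0.19. CDT1 and ORC1L lay just inside the 2-fold limit in BT474m1, at -0.99 and -0.96.

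Some genes lay above DMSO with JQ1. In SKBR-3 these were 12 of the 48 under the authors' scaling, 16 with the median of ratios and 8 with equal totals. The highest were RRM2 at 0.57 (0.53 to 0.60), TK1 at 0.50 (0.46 to 0.55), CLSPN at 0.39 (0.27 to 0.52), POLE at 0.37 (0.30 to 0.44) and RFC1 at 0.36 (0.23 to 0.49), all under 2-fold. In BT474m1, GMNN at 0.19 (0.09 to 0.30) and RPA2 at 0.04 (-0.07 to 0.15) were the 2 genes above DMSO. RRM2 and TK1 were below DMSO there, at -0.31 and -0.65. The JQ1 change was lower in SKBR-3 than in BT474m1 for 6 of the 48 genes, beside 52.2% of all genes kept.

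With both drugs, 44 genes were lowered in SKBR-3 and 40 in BT474m1, 38 of them in both, and 0 were raised. Of all genes kept, 8.93% were lowered in both lines. The backgrounds were 20.8% lowered and 10.8% raised in SKBR-3, and 15.3% and 14.2% in BT474m1. The medians were -2.88 and -2.21, and POLE2 at its bound in place of its fitted value left them as they were. The RRM2 change, -8.47 (-9.12 to -8.02) in SKBR-3 and, in BT474m1, -7.16 (-7.63 to -6.81), was the lowest in each line among genes with reads left. In SKBR-3, besides POLE2 at 0 reads, MCM10 and CDC45 followed at -7.99 and -7.42 on 4 reads each, then ORC1L at -6.67 and TYMS at -6.47. RFC1 in SKBR-3, at 0.31, and DNA2 in BT474m1, at 0.14, were the only genes above DMSO. The genes under 2-fold in BT474m1 were GMNN, CDC7, PRIM2, PCNA, RFC1, RPA2, RPA3 and DNA2, and those in SKBR-3 were POLE, RFC1, RPA3 and CHAF1B.

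Adding JQ1 to lapatinib moved the genes differently in the lines. Against lapatinib alone, both drugs lowered 13 of the 48 in SKBR-3 and raised 0, beside backgrounds of 16.2% and 3.22%. In BT474m1 they lowered 1, CDT1, and raised 6, beside 12.5% and 5.2%. The SKBR-3 median was -0.52 and that of BT474m1 0.10, beside -0.11 and -0.02 for all genes kept, and scaling by the median of ratios, which moved the median of all genes in SKBR-3 to 0, gave -0.37 and 0.13. In SKBR-3 39 of the 48 were below lapatinib alone and in BT474m1 21 were. The change was lower in SKBR-3 than in BT474m1 for 41 of the 48, beside 58% of all genes kept. This comparison and that with DMSO share libraries and are not independent.

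**Figure D4:**
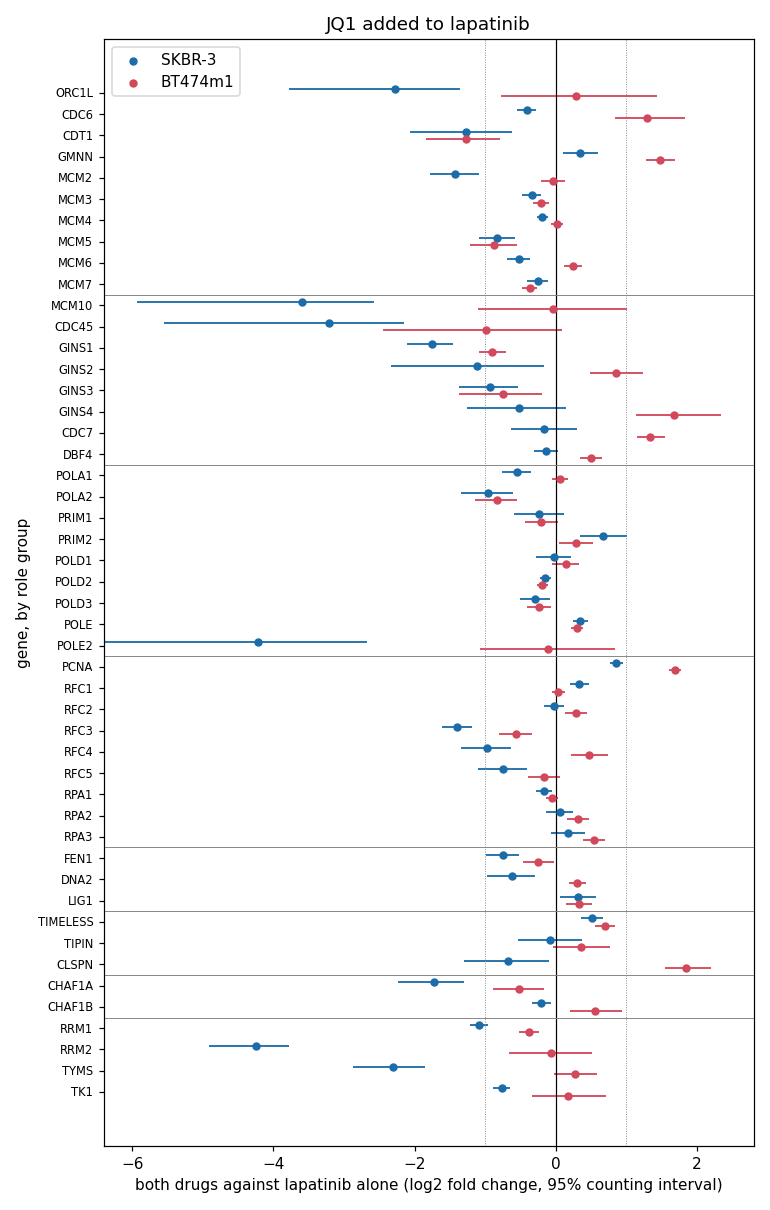
Log2 change with both drugs against lapatinib alone for the 48 genes (rows, by role) in SKBR-3 (blue) and BT474m1 (red), with 95% counting intervals as bars and the 2-fold limits dotted. The blue points of ORC1L, MCM10, CDC45, POLE2, RRM2 and TYMS lie below -2, the bar of POLE2 runs off the axis because it had 0 reads, and the red points of CLSPN, PCNA, GINS4 and GMNN lie highest.

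In SKBR-3 the 13 lowered genes were ORC1L, CDT1 and MCM2 of licensing, MCM10, CDC45, GINS1 and GINS2 of firing, POLE2, RFC3, CHAF1A, RRM1, RRM2 and TYMS. RRM2 fell from 397 to 19.9, a change of -4.25 (-4.91 to -3.78). Changes of MCM10 and CDC45 were -3.60 (-5.94 to -2.58) and -3.21 (-5.55 to -2.16), with wide intervals on few reads, and TYMS and ORC1L changed by -2.31 (-2.87 to -1.85) and -2.28 (-3.78 to -1.36). In BT474m1 the same 5 genes changed by -0.07 (-0.66 to 0.51), -0.04 (-1.11 to 1.01), -0.99 (-2.45 to 0.09), 0.28 (-0.03 to 0.59) and 0.29 (-0.77 to 1.43). Each of these intervals includes no change, so that a difference from lapatinib was not detectable at this depth. CDT1 was the gene lowered in both lines, by -1.27 (-2.06 to -0.61) and -1.28 (-1.85 to -0.80).

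The 6 genes that both drugs raised over lapatinib in BT474m1 were CLSPN at 1.85 (1.54 to 2.20), PCNA at 1.68 (1.60 to 1.77), GINS4 at 1.67 (1.14 to 2.34), GMNN at 1.48 (1.28 to 1.69), CDC7 at 1.34 (1.15 to 1.54) and CDC6 at 1.30 (0.84 to 1.83). All 6 stayed below their DMSO values. PCNA and GMNN were also above lapatinib in SKBR-3, at 0.86 (0.76 to 0.96) and 0.35 (0.10 to 0.59), and PCNA would pass 2-fold there with scaling by the median of ratios. PCNA and FEN1, partners in flap removal, separated with both drugs. The ratio of the PCNA to the FEN1 value was 3.35 with lapatinib and 10.3 with the combination in SKBR-3, and 3.88 and 14.8 respectively in BT474m1.

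The lines gave opposite signs for 18 of the 48 genes, a share near the 31.9% of all genes kept. For 7 of them (CDC6, MCM6, GINS2, RFC4, DNA2, CLSPN and CHAF1B) the counting intervals lay below 0 in SKBR-3 and above 0 in BT474m1, beside 6.78% of all genes kept, and for 0 the reverse, beside 4.54%. CLSPN changed by -0.67 (-1.30 to -0.10) in SKBR-3, GINS2 by -1.12 (-2.34 to -0.17) and CDC6 by -0.42 (-0.55 to -0.28). With 1 library per group, the difference between the lines was not tested.

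The change with both drugs was then compared with the sum of the single-drug changes, on the log2 scale, with approximate Poisson intervals. In SKBR-3, 11 of the 48 genes were at least 2-fold below the sum and 0 above, beside backgrounds of 7.58% and 3.9%. In BT474m1, 12 were at least 2-fold above and 0 below, beside 4.72% and 4.73%. The medians were -0.31 and 0.65, and those of all genes kept were -0.06 and 0.01. With equal totals the SKBR-3 median was -0.20, beside 0.03 for all genes, and with a pseudocount of 10 the count below the sum was 8 in place of 11. For 47 of the 48 genes the departure was lower in SKBR-3 than in BT474m1, beside 56.5% of all genes kept. Each departure draws on the DMSO library of its line, so that the departures of the 48 genes are not independent of each other. In BT474m1 the median change with both drugs against lapatinib was 0.10, and that with JQ1 against DMSO was -0.55. A gene above the sum there therefore need not lie above its lapatinib value.

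RRM2 lay furthest below the sum in SKBR-3, at -4.82 (-5.35 to -4.28), followed by MCM10 at -3.41 (-4.80 to -2.02) and CDC45 at -2.78 (-4.18 to -1.37). The other genes below it were ORC1L, CDT1, GINS1, POLE2, CLSPN, CHAF1A, TYMS and TK1, with POLE2 resting on 0 reads. The POLE2 departure, -2.70 (-6.75 to 1.35), includes 0, which leaves 10 of the 11 with an interval that does not. PRIM2 stood highest there, at 0.79 (0.41 to 1.16). In BT474m1 GINS4 lay furthest above the sum, at 1.97 (1.38 to 2.56), followed by CLSPN at 1.93 (1.60 to 2.26) and CDC6 at 1.87 (1.39 to 2.35). ORC1L, GMNN, MCM2, GINS2, CDC7, PCNA, RFC4, TIMELESS and TYMS were the other genes above it. CDT1 was lowest there, at -0.29 (-0.80 to 0.22), an interval that includes no departure.

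Other genes of these pathways, listed by name but with earlier results of these data known, were read for comparison. Of all genes kept, lapatinib lowered 9.44% in SKBR-3 and 8.06% in BT474m1, 4.15% in both lines, and raised 11.1% and 14%. Of 27 other nuclear replication genes, lapatinib lowered 13 in SKBR-3 and 12 in BT474m1, 11 in both, and raised 1 and 0, with medians of -0.93 and -0.87. DSCC1, part of a clamp loader for cohesion, fell from 2636 to 163 in the former line and from 392 to 12.0 in the latter, by -4.01 and -4.91. ASF1B, a histone chaperone, changed by -3.17 and -4.84, ATAD5, which unloads PCNA, by -2.57 and -3.08, RNASEH2A, the catalytic subunit of ribonuclease H2, by -2.45 and -3.13, and ORC6 by -2.43 and -3.15. ORC1L fell far more than the other large subunits of its complex, since ORC2, ORC3, ORC4 and ORC5 changed between -0.65 and 0.19 over the lines. POLD4, the smallest subunit of polymerase delta, was the gene raised in SKBR-3, by 1.28.

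Of 27 other genes of nucleotide metabolism, most of them for synthesis, lapatinib lowered 13 in SKBR-3 and 7 in BT474m1, 6 in both, and raised 0 and 1, with medians of -0.91 and -0.29. DTYMK, the kinase that acts on the product of TYMS and TK1 on the path to dTTP, fell by -2.28 and -1.67. DCK, NME1 and MTHFD1 were also lowered in both lines, as was SAMHD1, which breaks deoxynucleotides down. RRM2B, the p53-responsive alternative to RRM2, was at 888 (DMSO), 1137 (lapatinib), 1359 (JQ1) and 1885 (both drugs) among the SKBR-3 libraries, and at 1707, 1901, 3306 and 3907 among those of BT474m1. It was chosen after its values were seen, and with both drugs it moved opposite to RRM2, by 1.09 and 1.19.

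Polymerases of repair and bypass did not follow. Of 10, lapatinib lowered 1 in each line, POLQ, the polymerase of end joining by microhomology, by -3.98 and -4.13. It raised 1 in each, PRIMPOL in SKBR-3 and POLL in BT474m1, and the medians were 0.14 and 0.43. These counts are near the shares of all genes kept, 9.44% and 8.06% lowered and 11.1% and 14% raised. Of 12 genes listed for mitochondrial DNA replication and its nucleotide supply, lapatinib lowered 0 in either line. It raised 0 in SKBR-3 and 1 in BT474m1, with medians of -0.37 and 0.00.

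**Figure D5:**
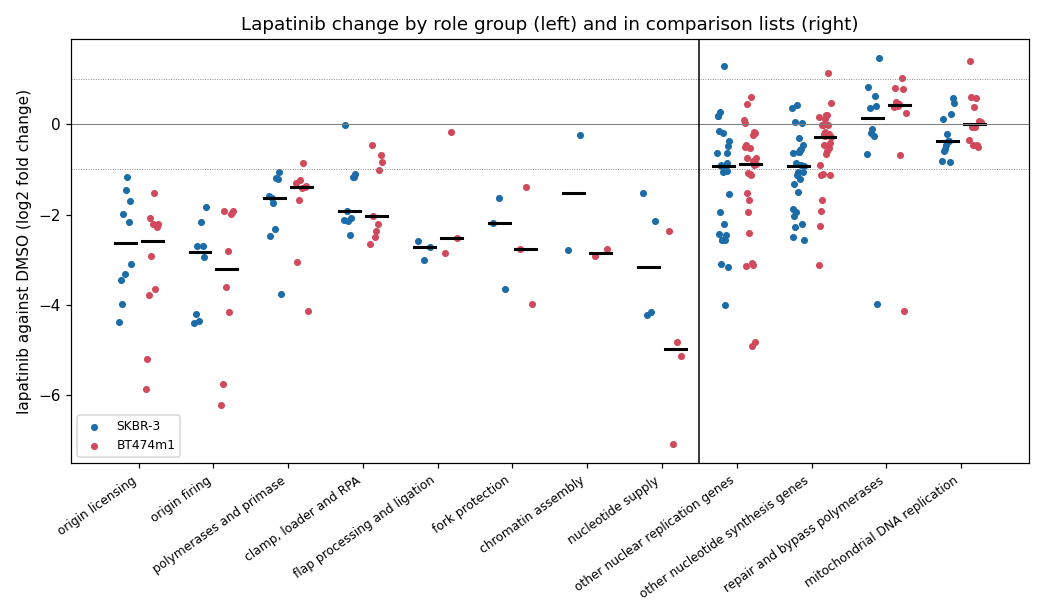
Log2 change with lapatinib against DMSO of each gene, by role group of the 48 genes (left of the vertical line) and in 4 comparison lists (right), in SKBR-3 (blue) and BT474m1 (red), with black bars at the medians and dotted lines at 2-fold. The medians of the role groups lie from -1.39 to -4.98, those of the nuclear and nucleotide lists from -0.93 to -0.29, and those of the repair and mitochondrial lists from -0.37 to 0.43.

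The promoter words shown above were set beside the fall with lapatinib. The 26 genes with an E2F-type word had median changes of -2.46 in SKBR-3 and -2.44 in BT474m1, and the 15 without one had -2.15 and -2.75. In both sets the changes overlapped widely, from -4.36 to -1.07 with a word and from -4.40 to -0.02 without in SKBR-3. MCM3, MCM6 and CDC7, with 4 words each, changed by -1.45 and -2.22, by -1.69 and -2.28 and by -2.95 and -1.98. Of the 10 genes ranked highest by the smaller fall of the lines, MCM10, ORC1L, RRM2 and CDC45 held none of the 4 words in these windows, whereas TYMS, CDT1, POLE2, CLSPN, GINS2 and CDC6 held 1 or 2.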

How the data were processed

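Poly(A) RNA of 8 cell line cultures was sequenced. The deposited signal per gene is an RSEM read estimate to which the authors applied upper quartile scaling (to 1000). The submitters' processing notes name hg19, RSEM, Picard 1.88, SAMtools 1.2, R 3.2.2 and DESeq2 1.12.3, whereas the study's methods describe another assembly and another aligner, and the labels name more than 1 library kit, so that these are uncertain. The treatment time is that of the labels, whereas the study's text names both this time and a shorter one. The common step between values gave the value of 1 read, of which 83.1% to 86.2% of the nonzero values per library were whole multiples, within 0.05 reads. The floor of 3 reads was 1.41 to 2.30 units. Counting error alone is covered by the intervals and floors, since PCR copies of a molecule were not told apart.

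Groups were taken from the labels. Genes at 10 or more in at least 1 library were kept (14429, with 6102 removed), and log2(value + 1) was compared within each line with pandas 2.3.3, scipy 1.17.1, numpy 2.4.6 and, for plots, matplotlib 3.10.9, under Python 3.11.15. The method was tested on simulated data. A rule gave 24 genes values in each library, by role group: the largest and smallest lapatinib change, the nucleotide genes, opposite changes of the lines, extremes against the sum, and genes at 3 reads or fewer. The genes, lists and rule were chosen with earlier results of these data known, and 1 gene of the comparison lists is counted but not reported here by itself. Positions and promoters come from RefSeq on GRCh38.p14 and exon overlaps from GENCODE, and locate the gene, not the reads. Promoters of DNA2, GINS4, MCM4, MCM5, POLD3, RPA2 and RPA3 are not shown here. Alternatives were equal totals or the median of ratios as the scaling, 10 as the pseudocount, 100 as the filter or none, a fold of 1.5, means for medians and counts of only those genes whose interval excluded no change.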

Additional observations from a re-analysis of the deposited data

Results flagged for a closer look

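In 13 cases, from 11 of the 48 genes, the lines lay on opposite sides of 0, with the interval of each line excluding 0 and a size of at least 2-fold in 1 line or both. By comparison these were 1 gene with both drugs against DMSO, 3 against lapatinib and 9 against the sum of the single drugs, all lower in SKBR-3, beside 2.83%, 1.32% and 1.4% of all genes kept in that direction and 1.55%, 0.589% and 0.36% in the other. For DNA2, both drugs against DMSO gave a change of -3.63 in SKBR-3, whereas BT474m1 gave 0.14. Against lapatinib, in the same order of lines, the changes with both drugs were -0.42 and 1.30 for CDC6, -1.12 and 0.85 for GINS2, and -0.67 and 1.85 for CLSPN. The other 9 cases were departures of both drugs from the sum of the single drugs, with approximate Poisson intervals, and all were below the sum in SKBR-3 and above it in BT474m1. They were -2.07 and 1.25 for ORC1L, -0.45 and 1.87 for CDC6, -0.76 and 1.25 for MCM2, -3.41 and 0.997 for MCM10, and -0.55 and 1.01 for RFC4. Those of CLSPN were -1.07 and 1.93, of CHAF1A -1.70 and 0.66, of TYMS -2.03 and 1.13, and of TK1 -1.27 and 0.82. Departures of a line share its libraries with the comparison against lapatinib. Each line had 1 library per group, and the difference between the lines was not tested.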

How the results depend on the processing

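Of 143 alternative values of the counts and medians, 129 stayed within 1.5 times the count or close to the median, 14 moved and 0 turned a call round, and 10 of the 11 medians kept their direction in every setting. The exception was the median difference of BT474m1 from SKBR-3 with DMSO, -0.11 with the median of ratios. The mean in place of the median gave -2.38 in SKBR-3 and -2.71 in BT474m1 with lapatinib, -3.16 and -2.56 with both drugs, -0.78 for both drugs against lapatinib in SKBR-3 and -0.59 against the sum there. Equal totals took the SKBR-3 median with JQ1 to -0.32. At a fold of 1.5, JQ1 lowered 6 genes in SKBR-3 and 21 in BT474m1 (21.5% and 21.1% of all genes kept), both drugs against lapatinib lowered 22 and 6 (27% and 20.9%), 10 were lower in BT474m1 with DMSO (24.2%), and 17 were below the sum in SKBR-3 (16.3%). Of 1584 values of single genes, 150 moved and 0 turned a call round, and the cause was not tested. Within a line no paired analysis was possible because each group held 1 library, and no library could be left out. The lines were described side by side and were not used as paired replicates. Genes with few reads, MCM10, CDC45 and POLE2 with both drugs in SKBR-3, are limited by depth.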
